A study of Mus musculus with 6 samples.

Results

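Aminoacyl-tRNA synthetases are the enzymes that join each amino acid to its tRNA. The 35 synthetase genes described here were taken by name, 19 for enzymes of the cytosol and 16 for enzymes of mitochondria, of 54115 genes to which reads could be summed. Liver RNA was sequenced from 3 WT mice and 3 *Sirt7* KO mice, all males aged 24 months that had been fasted for 16 h. The knockout is carried in the whole body by a line backcrossed to C57BL/6J, and both genotypes were littermates born to heterozygous parents. SIRT7 is a nuclear deacylase of the sirtuin family. RNA came from whole liver, so that fewer cells of a type and less RNA per cell cannot be told apart. The labels call the mice biological replicates, and each mouse gave 1 library.

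Translation in a cell of the liver runs on a pair of synthetase sets. The first charges tRNAs for ribosomes in the cytosol, and the second, also encoded in the nucleus, is imported to charge the tRNAs of the mitochondrial genome. Some cytosolic enzymes (here *Dars*, *Eprs*, *Iars*, *Kars*, *Lars*, *Qars* and *Rars*) sit in the multi-synthetase complex on scaffold proteins, and the others work free of it. When a cell lacks amino acids, uncharged tRNA activates the kinase GCN2, eIF2 is phosphorylated, and the transcription factor ATF4 is translated; many cytosolic synthetase genes are known targets of ATF4. *Kars* and *Gars* make enzymes for both compartments.

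Between 9994860 and 13424776 reads per mouse were assigned to transcripts. The genotypes were compared on counts, with the quasi-likelihood test of edgeR, over the 12524 genes that passed the filter on low counts, with Benjamini-Hochberg adjustment over all of them, and all 35 synthetase genes passed. CPM below are counts scaled to a fixed library size and to library composition (TMM factors), used to compare mice for the same gene; TPM, which are per length of transcript, are used to compare genes. As the check of the labels, the full-length *Sirt7* transcript was assigned 429.2, 381.0 and 408.4 reads in WT mice, and 124, 135 and 77.5 reads in *Sirt7* KO mice. All *Sirt7* reads together gave 55.2, 45.5 and 47.3 CPM in WT mice and 28.6, 41.7 and 40.8 CPM in *Sirt7* KO mice, also without overlap. In TPM the order was turned, with 27.3 to 34.4 in WT mice and 34.7 to 68.0 in *Sirt7* KO mice. The hepatocyte markers were *Alb*, *Apoa1*, *Ttr*, *Cps1*, *Serpina1a* and *Hnf4a*. Of these 6, 3 had log2 fold changes (*Sirt7* KO relative to WT) above 0 and 3 below it, from -0.44 to 0.55. In CPM, 2 of the 6 were higher in every *Sirt7* KO mouse than in every WT mouse, beside 8.74% of all genes tested. Together the 6 summed to 43276 to 48172 CPM in WT mice and 45359 to 54430 CPM in *Sirt7* KO mice. The lists for other cells were far lower and overlapped between genotypes (Kupffer cells, 47.8 to 151 CPM over the 6 mice; sinusoidal endothelium, 61.3 to 99.6; stellate cells, 185 to 315; cholangiocytes, 6.18 to 13.0; B, plasma and T cells, 4.66 to 10.9), except for the erythroid list, which had 208 to 262 CPM in WT mice and 302 to 545 CPM in *Sirt7* KO mice.

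The synthetase genes of the cytosol spanned a narrower range of levels than those of mitochondria. The mean TPM of the 6 mice ran from 4.49 for *Iars* (isoleucine) to 39.1 for *Nars* (asparagine) among the cytosolic genes, with a median of 16.1. *Tars* (threonine), the next highest, had 33.9 TPM, and *Wars* (tryptophan), the next lowest, had 6.55 TPM. *Nars* lay above *Tars* in all 3 WT mice (34.7 ± 4.80 and 25.6 ± 3.82 TPM; SD, n = 3), while in *Sirt7* KO mice the values of the 2 genes overlapped (43.4 ± 8.81 and 42.3 ± 8.37 TPM). Among the mitochondrial genes the median was 6.84 TPM. The lowest were *Mars2* (methionine) at 0.15 TPM and *Wars2* at 1.09 TPM. *Fars2* (phenylalanine) had 34.0 TPM, but it overlaps *Nrn1* on the opposite strand and shares 9.83% of its words of 31 bases with other genes. *Lars2* (leucine) stood far above all others at 1897 TPM.

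*Lars2* was assigned 94941, 106957 and 100280 reads in WT mice and 74149, 79383 and 82397 reads in *Sirt7* KO mice. That is more in every mouse than the other 34 genes together, which had 12538 to 14058 reads. Between 99.791% and 99.989% of these reads per mouse lay on a single isoform, ENSMUST00000217116.1, of 21 exons and 3756 bases, which the annotation marks as a target of nonsense-mediated decay. Of its 3726 words of 31 bases, 35 are not in the coding isoform ENSMUST00000038863.8. The gene CT010467.1, which the annotation calls an rRNA, was assigned 60676, 64355 and 61536 reads in WT mice and 43472, 49742 and 42649 reads in *Sirt7* KO mice. *Lars2* had 1.56 to 1.93 reads for each read of that gene over the 6 mice. Whether ribosomal RNA had a part in the *Lars2* value was not tested, and *Lars2* is left out of the sums of levels that follow.

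The 19 cytosolic genes together had 294 to 342 TPM in WT mice and 318 to 403 TPM in *Sirt7* KO mice. The other 15 mitochondrial genes together had 110 to 131 TPM in WT mice and 101 to 153 TPM in *Sirt7* KO mice. The cytosolic sum was 2.24 to 3.14 times the mitochondrial sum, the lowest ratio being that of WT replicate 3 and the highest that of *Sirt7* KO replicate 1. For the same amino acid, the cytosolic gene was higher than the mitochondrial gene in all 6 mice in 11 of 15 pairs. The ratio of the means was largest for proline, where *Eprs*, whose product charges both glutamate and proline, had 17.4 TPM and *Pars2* had 1.52 TPM. In 3 pairs the mitochondrial gene was higher in all 6 mice: leucine, isoleucine (*Iars2*, 9.42 TPM) and phenylalanine, where the cytosolic enzyme is made of the products of *Farsa* (13.9 TPM) and *Farsb* (16.4 TPM). *Yars* and *Yars2* (tyrosine) had 10.8 and 14.0 TPM, and their order differed between mice.

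**Figure D1:**
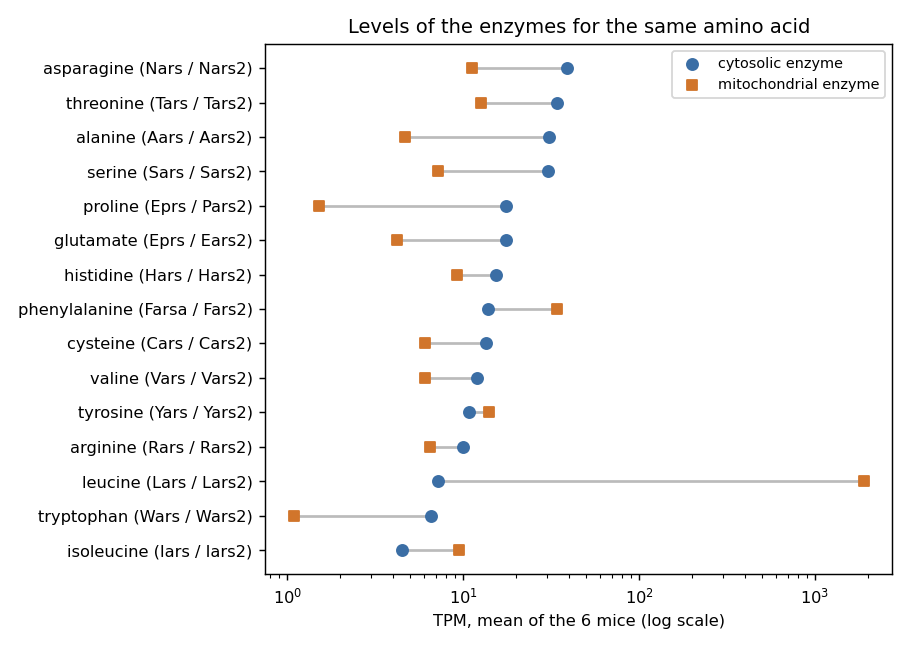
TPM (mean of the 6 mice, log scale) of the cytosolic enzyme (circles) and the mitochondrial enzyme (squares) for the same amino acid, with *Farsa* standing for the cytosolic phenylalanine enzyme and *Eprs* shown for both of its amino acids. Most circles lie to the right of their squares, and *Lars2* lies alone at 1897 TPM.

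Of the cytosolic genes, 17 had a log2 fold change above 0 (*Sirt7* KO relative to WT) and 2 below it. *Tars*, *Cars* (cysteine) and *Wars* had the largest log2 fold changes, between 0.55 and 0.74, and were higher in every *Sirt7* KO mouse than in every WT mouse. None of the 35 genes was called at an adjusted p under 0.05 and a fold over 1.5 by edgeR, a rule that called 0.00798% of all genes tested (1 gene). At an unadjusted p under 0.05, 3 cytosolic and 2 mitochondrial genes were higher in *Sirt7* KO mice, which is 14.3% of the 35, beside 6.54% of all genes; no synthetase gene was lower, beside 4.78% of all genes. In CPM, 7 of the 35 genes had all *Sirt7* KO mice above all WT mice, beside 8.74% of all genes, and 0 had them all below, beside 8.09%. In all, 28 of the 35 log2 fold changes (80.0%) were above 0, beside 49.3% of all genes. The genes of a list share their libraries, so these shares carry no test.

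The median log2 fold change was 0.19 for the cytosolic genes and 0.13 for the mitochondrial genes, beside -0.0061 for all genes tested. The difference of the 2 medians, cytosolic minus mitochondrial, was 0.06. With each mouse left out it ranged from -0.06 (without *Sirt7* KO replicate 1) and -0.04 (without WT replicate 1) to 0.16 (without *Sirt7* KO replicate 2) and 0.21 (without WT replicate 2, where the cytosolic median was 0.31). The difference was 0.12 with a length offset in edgeR or DESeq2 and 0.13 from mean TPM. With total counts in place of TMM factors the medians were 0.08 and 0.01, and that of all genes was -0.11.

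Mouse by mouse, the compartments differed in how they followed the genotype. Relative to the 6 mice, the mean log2 CPM of the 19 cytosolic genes was -0.11, -0.01 and -0.19 in WT replicates 1 to 3 and 0.06, 0.15 and 0.10 in *Sirt7* KO replicates 1 to 3, so the genotypes did not overlap. This was not particular to the cytosolic genes. The companion list of 8 GCN2 and eIF2 genes had -0.06, -0.10 and -0.11 in the same WT mice and 0.10, 0.06 and 0.11 in the same *Sirt7* KO mice. The mean of the 16 mitochondrial genes was -0.04, -0.06 and -0.08 in WT replicates 1 to 3, against -0.20, 0.18 and 0.20 in *Sirt7* KO replicates 1 to 3. Here *Sirt7* KO replicate 1 was the lowest of the 6 mice, while the other two were the highest. In that mouse 9 of the 16 mitochondrial genes lay below all WT mice and 3 above them, beside 27.6% and 28.2% of all genes tested. Of the 19 cytosolic genes, 2 lay below and 7 above in the same mouse. In *Sirt7* KO replicates 2 and 3, 10 and 11 mitochondrial genes lay above all WT mice, beside 29.7% and 29.0% of all genes. Of the 19 cytosolic genes, 13 and 10 lay above all WT mice in these replicates. The transcripts of the mitochondrial genome moved the other way from the 16 mitochondrial synthetase genes in these libraries. They took 3.17% of reads in *Sirt7* KO replicate 1, 1.93% and 1.65% in replicates 2 and 3, and 2.37% to 2.67% in WT mice. The split was not particular to the mitochondrial genes. In the 6 hepatocyte markers, too, *Sirt7* KO replicate 1 was the lowest of the 6 mice and the other *Sirt7* KO mice were the highest. Their mean was -0.12, 0.09 and 0.15 in *Sirt7* KO replicates 1 to 3 and -0.08 to 0.01 in WT mice. Some lists of markers of other liver cells also set *Sirt7* KO replicate 1 apart from the other *Sirt7* KO mice, and others did not. On the same scale, the 6 stellate cell markers had a mean of 0.35 in it and -0.17 in each of the others, with -0.11 to 0.18 in WT mice, and the 6 Kupffer cell markers had 0.67 in it, -0.56 and -0.01 in the others and -0.77 to 1.11 in WT mice. In the sinusoidal endothelial list (0.26, -0.30 and 0.29 in *Sirt7* KO replicates 1 to 3) and the erythroid list (0.57, -0.27 and 0.86), replicate 2 lay apart instead. In the erythroid list this replicate lay within the WT range of -0.53 to -0.25. The genotypes thus overlapped for that list on this scale, though not in summed CPM. The B, plasma and T cell list had 0.53, -0.36 and -0.22 in *Sirt7* KO replicates 1 to 3, and the cholangiocyte list had 0.26, 0.12 and -0.03. The part of these values in the result was not tested. Without *Sirt7* KO replicate 1, the mitochondrial median was 0.25 and the cytosolic median 0.19.

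**Figure D2:**
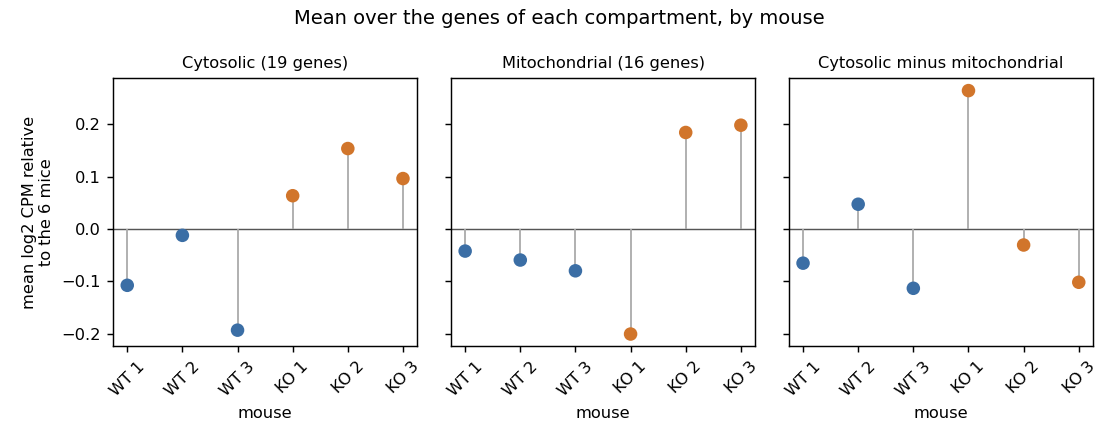
Mean log2 CPM over the genes of each compartment in each mouse, relative to the mean of the 6 mice, and the difference between the compartments (WT, blue; *Sirt7* KO, orange). All *Sirt7* KO mice lie above the WT mice in the cytosolic panel, and *Sirt7* KO replicate 1 lies at -0.20 in the mitochondrial panel.

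**Figure D3:**
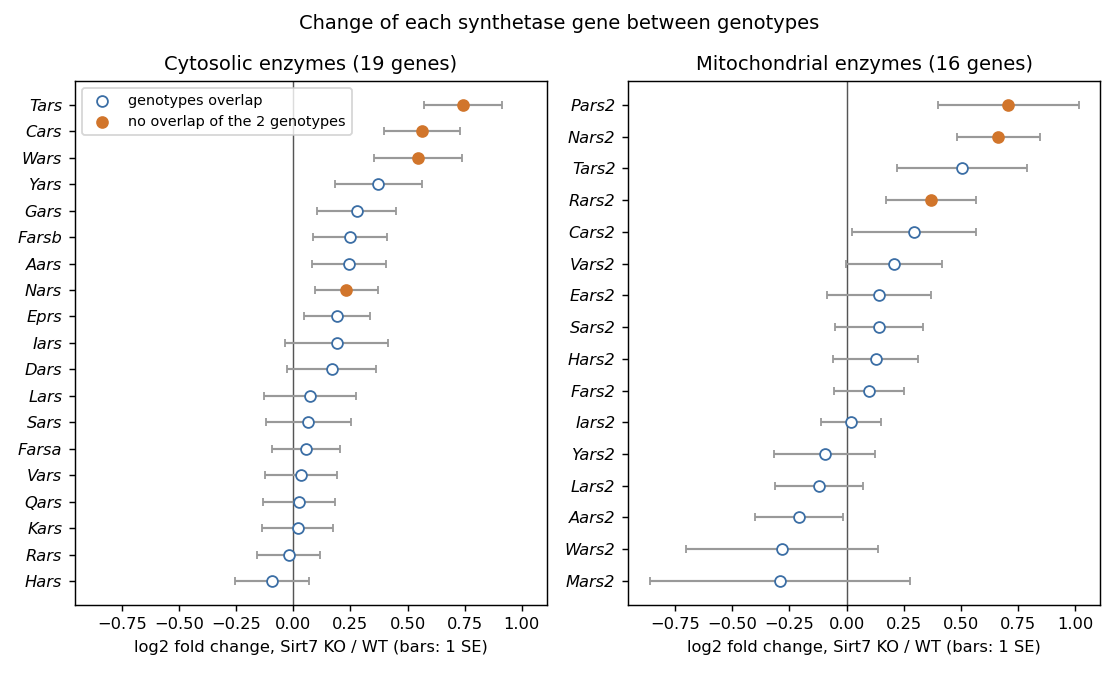
Log2 fold change (*Sirt7* KO / WT) of each of the 35 synthetase genes, with bars of 1 standard error. Filled points mark the 7 genes whose 3 *Sirt7* KO values all lie above their 3 WT values in CPM.

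*Tars*, which encodes the cytosolic threonyl-tRNA synthetase, spans 11382301 to 11399665 of chromosome 15 (GRCm38, minus strand). It had 78.0, 67.3 and 66.0 CPM in WT mice and 124, 136 and 93.8 CPM in *Sirt7* KO mice. Its means were 70.4 ± 6.58 and 118 ± 21.6 CPM (SD, n = 3), a fold of 1.67. The log2 fold change of 0.74 had a standard error of 0.17 and an adjusted p of 0.17 by edgeR. DESeq2, the tool named in the study's methods, called *Tars* with an adjusted p of 0.0091, where it called 2.11% of all genes. With the average transcript length as an offset, DESeq2 gave 0.028 for *Tars* and called 1.81% of all genes. Without a filter on low counts, edgeR gave an adjusted p of 0.0064 and called 2.27% of all genes, against 0.00798% with the filter. The adjusted p of edgeR depended strongly on this filter. For the companion gene *Asns*, described below, it was 0.20 with the filter and 4.8e-34 without it, at log2 fold changes of 3.29 and 3.30. When each mouse was left out in turn, the log2 fold change of *Tars* stayed between 0.63 and 0.88.

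The cysteine enzyme gene *Cars* had 30.4, 23.6 and 21.2 CPM in WT mice and 36.8, 36.6 and 37.8 CPM in *Sirt7* KO mice. The *Sirt7* KO mice lay close together, at 37.0 ± 0.64 CPM, above WT mice at 25.1 ± 4.76 CPM (SD, n = 3). Its log2 fold change of 0.56 had a standard error of 0.16 and an adjusted p of 0.24 by edgeR. DESeq2 with the length offset gave 0.90 and an adjusted p of 0.023, and without the offset an adjusted p of 0.17. *Wars*, whose product charges tryptophan and is also known as an interferon-induced gene, had 14.1, 13.1 and 9.76 CPM in WT mice and 19.6, 17.3 and 17.1 CPM in *Sirt7* KO mice. The estimate, 0.55 on the log2 scale, had a standard error of 0.19 and an adjusted p of 0.34 by edgeR. *Nars* did not overlap either, although its shift was small. It had 66.7, 84.2 and 77.6 CPM in WT mice and 89.3, 90.0 and 89.2 CPM in *Sirt7* KO mice, with a log2 fold change of 0.23 (adjusted p = 0.58 by edgeR).

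At the other end were *Hars*, *Rars* and *Kars*, the enzymes for histidine, arginine and lysine. *Hars* had 36.7, 32.7 and 26.5 CPM in WT mice and 30.8, 27.4 and 31.5 CPM in *Sirt7* KO mice. *Rars* hardly varied, with 23.9, 23.0 and 20.9 CPM in WT mice and 22.1, 22.5 and 22.3 CPM in *Sirt7* KO mice. *Kars* had 40.0, 39.2 and 37.7 CPM in WT mice and 32.3, 44.9 and 41.2 CPM in *Sirt7* KO mice, so the *Sirt7* KO values lay on both sides of the WT values. The log2 fold changes of these 3 genes were -0.10, -0.02 and 0.02, with standard errors of 0.16, 0.14 and 0.16. *Hars* meets *Hars2* head to head on the opposite strand, and both share words of 31 bases, so that a few reads of the pair cannot be assigned for certain. *Iars* had 14.2, 25.1 and 22.0 CPM in WT mice and 26.9, 23.1 and 20.0 CPM in *Sirt7* KO mice, and it shares 14.7% of its words, mostly with *Gm4849*.

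The other 11 cytosolic genes all had log2 fold changes above 0, from 0.03 for *Qars* (glutamine) to 0.37 for *Yars*, and overlapped between genotypes. Their adjusted p were 0.51 to 0.97 by edgeR. *Gars* (glycine) had 0.28, *Farsb* 0.25, *Aars* (alanine) 0.24, *Eprs* 0.19 and *Dars* (aspartate) 0.17. *Aars* shares 14.4% of its words, mostly with *Exosc6*, which lies within it on the same strand. *Exosc6* was assigned 0 reads in every mouse, so reads from the shared stretch cannot be assigned for certain. *Lars* had 0.07, *Sars* (serine) 0.07, *Farsa* 0.06 and *Vars* (valine) 0.03. Grouped by the multi-synthetase complex, a split made after the values were seen, the 7 genes of the complex had log2 fold changes of -0.02 to 0.19 with a median of 0.07. The 12 genes outside it had -0.10 to 0.74 with a median of 0.25. All 4 cytosolic genes without overlap between genotypes (*Cars*, *Nars*, *Tars* and *Wars*) belonged to the second group.

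**Figure D4:**
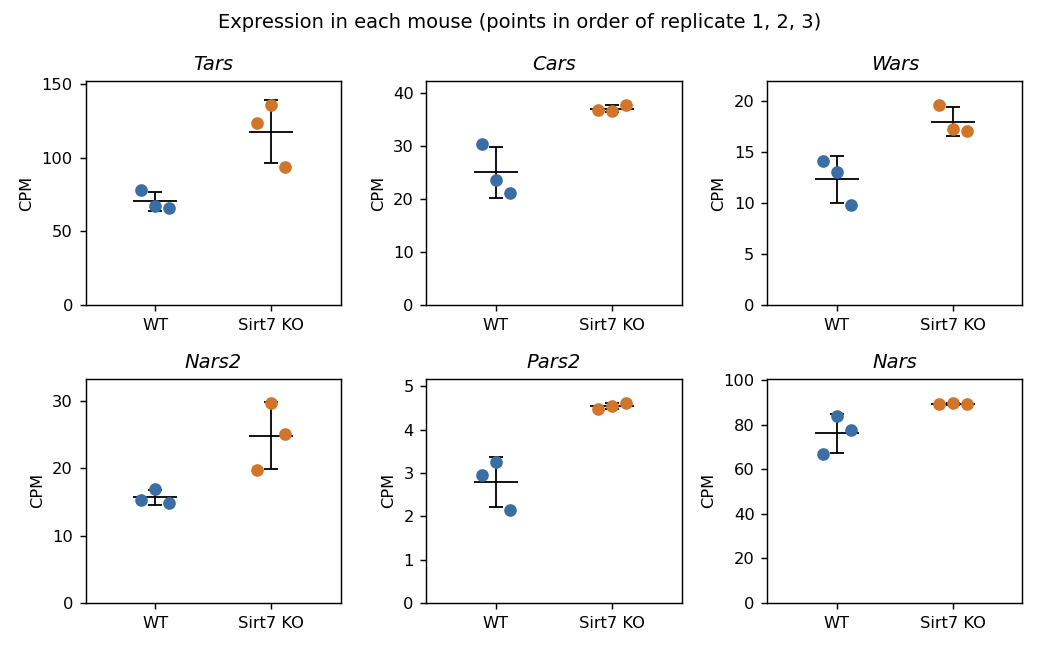
CPM in each mouse of the 5 synthetase genes with an unadjusted p under 0.05 and of *Nars*, with the mean and SD of each genotype (n = 3) and each axis starting at 0. No *Sirt7* KO point lies below a WT point in any panel.

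The promoters of the cytosolic genes were searched for the C/EBP-ATF composite element, the sequence at which ATF4 is known to bind as a partner of C/EBP proteins. The letters TGATGNAA were looked for on both strands, from 250 bases before to 50 bases after the start of each gene in RefSeq promoters of GRCm38.p6. The element was the single motif searched. Of the 35 genes, 26 had a promoter in this table; *Cars*, *Hars*, *Lars*, *Nars*, *Rars*, *Vars*, *Wars*, *Hars2* and *Pars2* had no entry. The element was in 5 of 12 cytosolic promoters (41.7%), those of *Aars*, *Gars*, *Iars*, *Tars* and *Yars*, and in 0 of 14 mitochondrial promoters. It was in 4.51% of all 27025 genes of the table and in 2.75% of the 9280 that were also tested for expression. The first 250 bases of the *Tars* window, which carry the element just before the start of the gene with the largest cytosolic change, are shown here in the direction of transcription, with the element in capitals (chr15:11399659-11399908, minus strand).

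Tars: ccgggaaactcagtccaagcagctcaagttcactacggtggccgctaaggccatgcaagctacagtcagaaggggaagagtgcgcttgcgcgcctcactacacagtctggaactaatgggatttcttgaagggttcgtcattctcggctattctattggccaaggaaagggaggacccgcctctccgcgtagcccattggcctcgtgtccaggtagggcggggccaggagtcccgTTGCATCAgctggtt

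The elements nearest the start of the other 4 genes are shown with their nearest bases, followed by those of *Asns* and *Chac1*, the companion genes of the amino acid stress response that were highest in *Sirt7* KO mice relative to WT mice. Both were picked by that change, and the share of the companion list with the element was not counted. Whether the element goes with the change in that list therefore cannot be read from them. In *Yars* and *Asns* the element reads as searched, and in the others it lies on the opposite strand.

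Aars at 10: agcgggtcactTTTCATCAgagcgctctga
Gars at -30: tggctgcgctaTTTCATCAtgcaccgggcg
Iars at 8: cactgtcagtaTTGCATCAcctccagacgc
Yars at 4: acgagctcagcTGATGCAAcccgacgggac
Asns at -23: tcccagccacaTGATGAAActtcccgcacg
Chac1 at -193: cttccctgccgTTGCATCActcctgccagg

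Positions count the first base of the element from the start of the gene, and that of *Tars* was -15. The 5 cytosolic genes with the element had log2 fold changes of 0.19 to 0.74 with a median of 0.28. The 7 whose window held no match had 0.02 to 0.25 with a median of 0.07, and the 7 without an entry had -0.10 to 0.56 with a median of 0.07. Both ranges met at *Farsb*, *Eprs*, *Aars* and *Iars*. A match describes the letters of the window and was not tested as a site of binding.

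**Figure D5:**
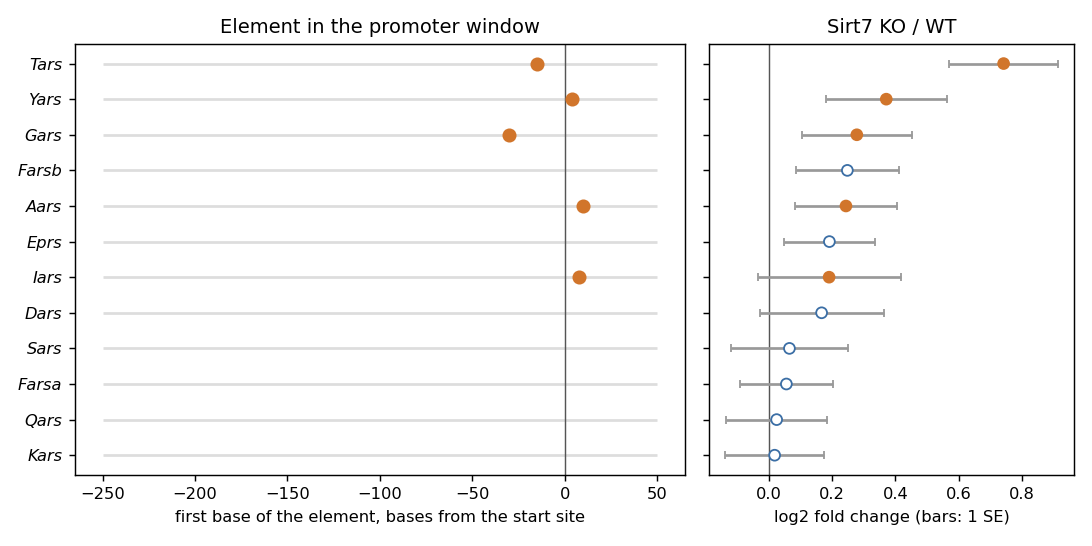
Left, position of the C/EBP-ATF element nearest the start in the promoter window of the 12 cytosolic genes found in the table, in bases from the start of the gene. Right, log2 fold change (*Sirt7* KO / WT) of the same genes with bars of 1 standard error (orange, with the element; open, without), where the 5 genes with the element run from 0.19 to 0.74.

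Of the mitochondrial genes, 11 had log2 fold changes above 0 and 5 below it (*Aars2*, *Lars2*, *Mars2*, *Wars2* and *Yars2*). *Nars2*, the mitochondrial asparagine enzyme gene, spans 96951505 to 97064758 of chromosome 7 (plus strand). It had 15.3, 17.0 and 14.8 CPM in WT mice and 19.8, 29.8 and 25.1 CPM in *Sirt7* KO mice. The estimate, 0.66 on the log2 scale, had a standard error of 0.18 and an adjusted p of 0.22 by edgeR. It was 0.52 to 0.81 when each mouse was left out in turn. *Pars2*, for proline, had few reads, 29 to 36 in WT mice and 43 to 49 in *Sirt7* KO mice. That made 2.96, 3.27 and 2.15 CPM in WT mice and 4.49, 4.56 and 4.62 CPM in *Sirt7* KO mice, with a log2 fold change of 0.71 (standard error 0.31, adjusted p = 0.43 by edgeR). *Rars2* (arginine) also did not overlap in CPM, with 8.30, 8.62 and 8.80 CPM in WT mice and 10.6, 12.8 and 9.83 CPM in *Sirt7* KO mice and a log2 fold change of 0.37 (adjusted p = 0.54 by edgeR).

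*Tars2*, the mitochondrial partner of *Tars*, showed the split between *Sirt7* KO mice most plainly. It had 18.0, 25.0 and 22.3 CPM in WT mice and 17.6, 35.6 and 39.7 CPM in *Sirt7* KO mice, so that replicate 1 was the lowest of all. Its log2 fold change of 0.50 had a standard error of 0.28 and an adjusted p of 0.56 by edgeR, and without that mouse it was 0.79 with an adjusted p of 0.066. *Fars2* had 29.7, 37.8 and 37.9 CPM in WT mice and 34.1, 39.8 and 39.1 CPM in *Sirt7* KO mice, with a log2 fold change of 0.10. *Aars2* had 19.5, 13.9 and 19.7 CPM in WT mice and 13.7, 16.0 and 16.3 CPM in *Sirt7* KO mice, with a log2 fold change of -0.21.

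The least expressed mitochondrial genes could not be placed. *Mars2* had 33, 18 and 30 reads in WT mice and 12, 8 and 36 reads in *Sirt7* KO mice, that is 2.79, 1.63 and 2.22 CPM and 1.10, 0.85 and 3.47 CPM. *Wars2* had 2.62, 4.90 and 4.44 CPM in WT mice and 2.01, 4.98 and 2.89 CPM in *Sirt7* KO mice. In both genes the *Sirt7* KO values spanned the WT values, and the log2 fold changes of -0.29 and -0.28 had standard errors of 0.57 and 0.42, so no difference was detectable beyond the spread between these mice. *Lars2* had 8039, 9704 and 7418 CPM in WT mice and 6790, 8412 and 7938 CPM in *Sirt7* KO mice, with a log2 fold change of -0.12 (standard error 0.19). The other 8 mitochondrial genes (*Cars2*, *Ears2*, *Hars2*, *Iars2*, *Rars2*, *Sars2*, *Vars2* and *Yars2*) had log2 fold changes of -0.10 to 0.37 and adjusted p of 0.54 to 0.97 by edgeR. *Vars2* turned from 0.21 to -0.33 with a length offset. *Iars2* lies over *Rab3gap2* on the opposite strand, with which it shares most of the 23.6% of its words that are not its own.

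TPM differ from CPM in the scaling to transcript length and in a fixed total per mouse in place of TMM factors. In TPM, 4 of the 35 genes had all *Sirt7* KO mice above all WT mice, beside 6.07% of all genes: *Cars*, *Tars*, *Wars* and *Pars2*. *Nars*, *Nars2* and *Rars2* overlapped on this scale. In *Nars2*, for example, WT replicate 3 had 8.52 TPM and *Sirt7* KO replicate 1 had 7.83 TPM.

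The genes that work beside the synthetases were followed by their lists. Of the further synthetase genes, *Mars* (cytosolic methionine) and *Tarsl2* (a relative of *Tars*) had log2 fold changes of 0.06 and -0.14, and neither had an unadjusted p under 0.05. The scaffolds of the multi-synthetase complex, *Aimp1*, *Aimp2* and *Eef1e1*, were all below 0, at -0.22, -0.25 and -0.12, and 0 of 3 passed an unadjusted p under 0.05. The 4 genes that complete charging in mitochondria were all above 0. *Gatb*, *Gatc* and *Qrsl1* encode the amidotransferase that makes glutaminyl-tRNA there, and had 0.41, 0.10 and 0.71; *Mtfmt*, which formylates the initiator methionyl-tRNA, had 0.18. *Qrsl1* did not overlap between genotypes, but 0 of 4 passed an unadjusted p under 0.05. The editing factors *Aarsd1*, *Prorsd1*, *Dtd1* and *Dtd2*, which remove wrongly joined amino acids, had -0.05 to 0.15, and none passed.

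In the pathway that answers to uncharged tRNA, *Eif2ak4*, which encodes GCN2, had a log2 fold change of 0.56 (unadjusted p = 0.16 by edgeR), and 0 of the 8 genes of the GCN2 and eIF2 list passed an unadjusted p under 0.05 (median 0.21). *Atf4* itself had 41.7, 32.7 and 31.3 CPM in WT mice and 32.7, 41.7 and 40.4 CPM in *Sirt7* KO mice, with a log2 fold change of 0.12 (adjusted p = 0.84 by edgeR). Of the 28 genes listed for the ATF4 response to a lack of amino acids, 19 passed the filter on low counts; 11 were above 0 and 8 below, with a median of 0.12. At an unadjusted p under 0.05 by edgeR, 3 were higher in *Sirt7* KO mice and 3 were lower, beside 6.54% and 4.78% of all genes. By edgeR 0 of 19 were called. DESeq2 called 0 of 18, beside 2.11% of all genes, and with the length offset 0 of 21, beside 1.81%. Without a filter on low counts edgeR called 4 of 28 (*Asns*, *Chac1* and *Cth* higher, *Cebpb* lower), beside 2.27% of all genes.

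*Asns*, the asparagine synthetase that makes the amino acid itself and not its charged tRNA, had the largest log2 fold change of the list. It had 0.85, 6.99 and 1.04 CPM in WT mice and 7.88, 30.1 and 47.3 CPM in *Sirt7* KO mice, with a log2 fold change of 3.29 (standard error 0.83, adjusted p = 0.20 by edgeR). The lowest *Sirt7* KO mouse lay close to the highest WT mouse. *Chac1*, which degrades glutathione, had 1.69, 0.54 and 3.11 CPM in WT mice and 3.57, 5.30 and 7.80 CPM in *Sirt7* KO mice. *Cth*, which makes cysteine, had 327 to 406 CPM in WT mice, and 285, 1109 and 734 CPM in *Sirt7* KO mice, where replicate 1 was again the lowest of all. The log2 fold changes of *Chac1* and *Cth* were 1.62 and 0.95 (adjusted p = 0.33 and 0.41 by edgeR).

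The 3 genes that were lower encode transcription factors of the C/EBP family and an amino acid transporter. *Cebpb* had 56.9, 68.1 and 28.1 CPM in WT mice and 34.1, 11.1 and 5.01 CPM in *Sirt7* KO mice, with a log2 fold change of -1.60 (adjusted p = 0.36 by edgeR). *Cebpg* had 33.8 to 55.2 CPM in WT mice and 23.6 to 30.9 CPM in *Sirt7* KO mice, without overlap and with a log2 fold change of -0.57. *Slc38a2*, which imports neutral amino acids, had 54.0 to 78.4 CPM in WT mice and 38.4 to 55.8 CPM in *Sirt7* KO mice, with a log2 fold change of -0.47.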

How the data were processed

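Per the labels, 3 WT and 3 *Sirt7* KO livers were sequenced. The authors made cDNA with SMART-seq HT and libraries with Nextera XT, trimmed single-end reads with Trim Galore 0.6.5 and quantified them on mouse transcripts of GRCm38 with Salmon 1.2.1. The authors deposited estimated counts per transcript (not normalized, not always whole) and TPM (scaled to effective length and to a total per mouse). The deposited effective lengths, an output of the same run, were identical in all mice. The kit does not mark strand.

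Estimated counts were summed per gene with GENCODE M21 and rounded; 1201 of 140992 transcripts had no gene there (0.303% to 0.492% of reads). Genes were tested with edgeR 4.0.16 in R 4.3.3 (quasi-likelihood, TMM, filterByExpr with a minimum count of 10), which was tested on simulated data; DESeq2 1.42.0 was an alternative. Standard errors and p-values adjusted by Benjamini-Hochberg come from this fit. TPM were summed per gene and not tested. Shared words of 31 bases and promoter elements were found with Python 3.11.15. An exact permutation test of 3 mice against 3 cannot go below p = 0.1 and was not used. Mice of a genotype differed by more than sampling noise (chi-square of at least 17.7 per gene), so each counted once. Depth covers counting error only.

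The members, lists and rules were chosen with earlier results of these data known. All 35 genes are named; values in each mouse are given for those with an unadjusted p under 0.05, the 3 largest and 3 smallest log2 fold changes and the 2 highest and 2 lowest TPM of each compartment, and, beyond this rule and chosen after their values were seen, for *Rars2*. Of the companion lists, *Atf4*, *Asns* and genes with an unadjusted p under 0.05 are given in CPM; log2 fold changes of further genes of the short lists were added after they were seen. *Ddit3* has 2 gene entries in the annotation, of which the first was used. Alternatives were other normalizations, filters, a length offset, DESeq2, a block on the replicate number, leaving out each mouse, and, chosen after seeing the data, leaving out *Lars2*. Protein sequences were not analysed here, and 1 companion gene and 1 promoter element are not reported here.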

Additional observations from a re-analysis of the deposited data

How the results depend on the processing

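The sign of the log2 fold change of *Tars*, *Cars*, *Wars*, *Nars2* and *Pars2* was positive under every alternative that could fit them (*Pars2* was left out by a mean of at least 50 counts). These genes were picked by an unadjusted p under 0.05 in the same mice. In CPM all their *Sirt7* KO values lay above all their WT values, so leaving out a mouse could hardly turn the sign. Called genes numbered 1 without a filter and with DESeq2 (*Tars* in both), and 2 with DESeq2 and the length offset (*Tars*, *Cars*); *Tars* was 0.75, 0.75 and 0.79 and *Cars* 0.90 there. Mitochondrial genes with an unadjusted p under 0.05 numbered 1 with upper-quartile factors, total counts, a mean of at least 50 counts, the length offset, and DESeq2 with or without it. When each mouse was left out, they numbered 1 to 2, the cytosolic ones 2 to 5 (5 without WT replicate 2), and no gene was called; the cytosolic median was 0.12 to 0.31 and the mitochondrial median 0.04 to 0.25. The cytosolic median was 0.083 with total counts, which moved the median of all genes to -0.11, and 0.26 with DESeq2 and the length offset. Genes without overlap numbered 4 in TPM. With total counts the log2 fold change turned sign for 8 genes: *Kars* (-0.094), *Fars2* (-0.0032), *Farsa*, *Lars*, *Qars*, *Sars*, *Vars* and *Iars2*. With the length offset it turned for 4 in edgeR and DESeq2: *Wars2* (0.17 in both), *Vars2* (from 0.21 to -0.33 and -0.31), *Qars* and *Sars*. With a mouse left out, 1 to 8 genes turned, and the log2 fold change ranged from -0.21 to 0.012 for *Hars*, -0.071 to 0.015 for *Rars*, -0.083 to 0.15 for *Kars*, -0.019 to 0.36 for *Iars*, -1.17 to 0.040 for *Mars2* and -0.014 to 0.17 for *Fars2*. The causes were not tested. Without *Sirt7* KO replicate 1, 252 genes were called over the whole table, but 0 synthetase genes. Same-numbered mice of the 2 genotypes correlated at 0.06, 0.07 and -0.05 in their deviations, so the numbers do not pair them; with the replicate block 41 genes were called in all, 0 of them synthetase genes, and 1 mitochondrial gene had an unadjusted p under 0.05. Without *Lars2*, chosen after seeing the data, the mitochondrial median was 0.14, and without *Kars* and *Gars* the cytosolic median was 0.19. The planned comparison of protein sequences was not run. *Mars2* had 8 to 36 reads per mouse.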

Other observations

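The isoform to which Salmon assigned the reads of a synthetase gene changed between mice for some genes. In *Rars2*, 92.0 reads of WT replicate 2 lay on ENSMUST00000142045.7, a processed transcript of 20 exons that had 0 reads in the other 5 mice. Their reads lay mainly on the coding isoform ENSMUST00000029968.13, which had 90.7 to 116 reads in them and 0 in WT replicate 2. In *Qars*, the isoform with the most reads, ENSMUST00000208214.1, is marked as a target of nonsense-mediated decay and held 49.2% of the reads of the gene, while isoforms annotated as coding held 0% to 44.4% per mouse. In *Nars*, coding isoforms held 40.2% to 93.0% of reads per mouse.

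By structural class, a grouping made after the values were seen, the 17 genes of class I enzymes had a median log2 fold change of 0.07 and the 17 of class II enzymes one of 0.17. *Eprs*, whose product holds an enzyme of each class, was in neither.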
